A study of Mus musculus with 265 samples.

Results

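The promoters of splicing factor genes were followed in single cells of a mouse pre-B line at 0 and 24 hours of Ikaros induction. The set comprised the regions of the single-cell ATAC-seq matrix whose midpoint lay within 1 kb of the start site of a protein-coding gene with a symbol beginning with Srsf, Snrp, Sf3a, Sf3b, Hnrnp, Prpf, U2af or Lsm. This gave 84 regions of 63 genes, out of 8786 promoter regions and 20103 regions in all, and the other 8702 promoter regions served as the comparison. The samples were B3 cells, a mouse pre-B cell line carrying Ikaros fused to ERt2, a hormone-binding domain that keeps the fusion protein out of the nucleus until 4-hydroxytamoxifen is added. All cells of both time-points carried the fusion. The 0-hour cells were collected without the drug, and the 24-hour cells after induction with 4-hydroxytamoxifen, given as 20 mM in the labels, with an additional dose at about 12 hours. Cells were captured in 2 Fluidigm C1 runs per time-point, numbered here as runs 1 and 2 at 0 hours and runs 3 and 4 at 24 hours. The sources do not say whether runs came from separate cultures, so a p-value measures the spread between these runs, which may be technical. A drug-only control without the fusion protein was not analysed here, and effects of drug, time and Ikaros cannot be told apart.

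Introns are removed from pre-mRNA by the spliceosome, which is built from small nuclear ribonucleoproteins (snRNPs). The Snrp proteins include the Sm proteins that form a ring on U1, U2, U4 and U5 RNA, and the Lsm proteins form the matching ring on U6 RNA. U2AF binds the 3' splice site, SF3A and SF3B hold the U2 snRNP at the branch site, and several PRPF proteins belong to the tri-snRNP that joins later. Srsf genes encode SR proteins, which bind exonic enhancers, and Hnrnp genes encode abundant RNA-binding proteins that can promote or repress the use of an exon. Such genes are used by nearly every cell and their promoters tend to lie in CpG islands. Ikaros is a zinc finger transcription factor that drives pre-B cell differentiation and binds sites with the core GGGAA.

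The sequences of 7 member regions are shown because they include regions detected in many cells and 3 of those with the smallest p between time-points. Each is the stretch of the region outside annotated exons, read 5' to 3' on the strand of its gene from the mm10 assembly (GRCm38). Capitals mark GGGAA or its complement TTCCC, the Ikaros core, and CCAAT or its complement ATTGG, the box bound by NF-Y.
Hnrnpr, chr4:136310769-136310929, plus strand: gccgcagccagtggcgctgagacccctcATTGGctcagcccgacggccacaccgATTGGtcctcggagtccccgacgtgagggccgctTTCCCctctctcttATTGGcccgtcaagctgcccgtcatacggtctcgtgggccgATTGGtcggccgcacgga
Hnrnpa3, chr2:75659075-75659223, plus strand: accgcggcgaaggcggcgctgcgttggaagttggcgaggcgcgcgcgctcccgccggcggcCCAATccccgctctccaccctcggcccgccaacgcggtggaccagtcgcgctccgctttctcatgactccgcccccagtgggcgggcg
Sf3b6, chr12:4817396-4817543, plus strand: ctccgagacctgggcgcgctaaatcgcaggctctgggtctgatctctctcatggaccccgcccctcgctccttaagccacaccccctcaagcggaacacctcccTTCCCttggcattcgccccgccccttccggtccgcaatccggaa
Snrpd2, chr7:19149311-19149453, plus strand: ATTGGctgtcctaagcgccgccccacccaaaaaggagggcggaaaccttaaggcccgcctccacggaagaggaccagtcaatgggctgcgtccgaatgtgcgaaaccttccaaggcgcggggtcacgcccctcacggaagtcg
Srsf9, chr5:115327012-115327165, plus strand: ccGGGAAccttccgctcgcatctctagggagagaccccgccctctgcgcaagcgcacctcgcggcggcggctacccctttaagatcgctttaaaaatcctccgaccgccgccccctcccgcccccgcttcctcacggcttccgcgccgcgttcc
Prpf39, chr12:65036222-65036332, plus strand: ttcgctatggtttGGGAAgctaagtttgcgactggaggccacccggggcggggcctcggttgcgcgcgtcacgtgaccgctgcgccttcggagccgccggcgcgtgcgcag
Lsm11, chr11:45944936-45945080, minus strand: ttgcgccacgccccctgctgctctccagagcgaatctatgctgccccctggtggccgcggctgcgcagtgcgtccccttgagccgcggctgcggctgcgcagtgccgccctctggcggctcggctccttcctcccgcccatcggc
The Hnrnpr stretch held 4 CCAAT boxes and 1 Ikaros core. The Lsm11 stretch held neither.

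The 4 runs held 48, 47, 60 and 72 cells and 164357, 92639, 122586 and 142611 counts over all regions. The median cell had 2898 counts in run 1, 1787 in run 2, 1839.5 in run 3 and 1676 in run 4. Promoter regions took 51.0%, 48.5%, 58.3% and 66.4% of the counts in runs 1 to 4. Of 10 B-lineage genes, 7 had a promoter region in the matrix, among them Cd79a, Cd79b, Ebf1, Igll1 and Pax5. The summed level of these 8 regions was 540, 543, 566 and 455 in runs 1 to 4 as normalized CPM, the counts-per-million scale with TMM-corrected library sizes. These regions did not move together. Igll1, which encodes a surrogate light chain of the pre-B cell receptor, was detected in 25.0%, 14.9%, 5.0% and 0% of cells, with a log2 change of -2.42 ± 0.90 from 0 to 24 hours (edgeR adjusted p = 0.259), while Ebf1, a B-lineage transcription factor, had a log2 change of 1.24 ± 0.58 (edgeR adjusted p = 0.362). The 0 of 72 cells of run 4 allows a share of up to 4.17%. None of 5 T cell or 4 erythroid genes had a promoter region, and of 5 myeloid genes Lyz2 had 1 region, detected in 6 of 227 cells.

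The rule matched 82 genes, and 19 of them had no promoter region in the matrix used here. These were Hnrnpa2b1, Hnrnpc, Hnrnpk, Hnrnpll, Hnrnpm, Hnrnpul2, Lsm7, Lsm14a, Prpf6, Prpf40b, Sf3a2, Sf3b3, Sf3b4, Sf3b5, Snrpa1, Snrpc, Snrpd1, Snrpn and Srsf12. The matrix keeps only regions seen in at least 5 cells, so this does not show that those promoters were closed. It also holds fewer regions than the paper reports at that limit, for a reason not known here. Of the 63 genes with a region, 44 had 1, 17 had 2 and 2 had 3, these being Prpf4b and Srsf1. The nearest region to the start was also the one detected in most cells in 13 of the 19 genes with several regions. In 24 of the 84 regions the start site of another protein-coding gene also lay within 1 kb, as for Prpf38a with Orc1, Lsm1 with Bag4 and Lsm3 with Xpc, and counts there cannot be assigned to either gene. The Hnrnpa1 region lay 951 bp upstream of its start, beside the start of Cbx5. Lsmem1 entered the Lsm group by its letters alone, since it encodes a membrane protein and no Lsm ring protein. Each of the 84 sequences was found once in the genome at 90% identity over 80% of its length. The search needed 16 matching bases in a row, so it could miss an inexact copy of the shortest region, 17 bp wide.

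Splicing factor promoters were seen in few cells each, at a level close to that of other promoters. The median member was detected, with a count of 1 or 2, in 21.5 of 227 cells (9.47%), and the median of other promoter regions in 19 cells (8.37%). Detection in at least 10% of cells was reached by 39 of 84 members (46.4%) and by 3446 of 8702 others (39.6%). No member was seen in more than 57 cells, a number exceeded by 176 other promoter regions (2.02%). In a single cell the 84 regions gave a median of 8.5 detected members in run 1, 5 in run 2, 7 in run 3 and 7 in run 4, with a range from 0 to 34. After each cell was thinned to 837 counts, which kept 48, 46, 47 and 63 cells, the means were 3.98, 2.54, 4.30 and 4.27 members per cell. Run 2 was lowest here too, where the total over all regions was matched and not that over promoters.

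**Figure D1:**
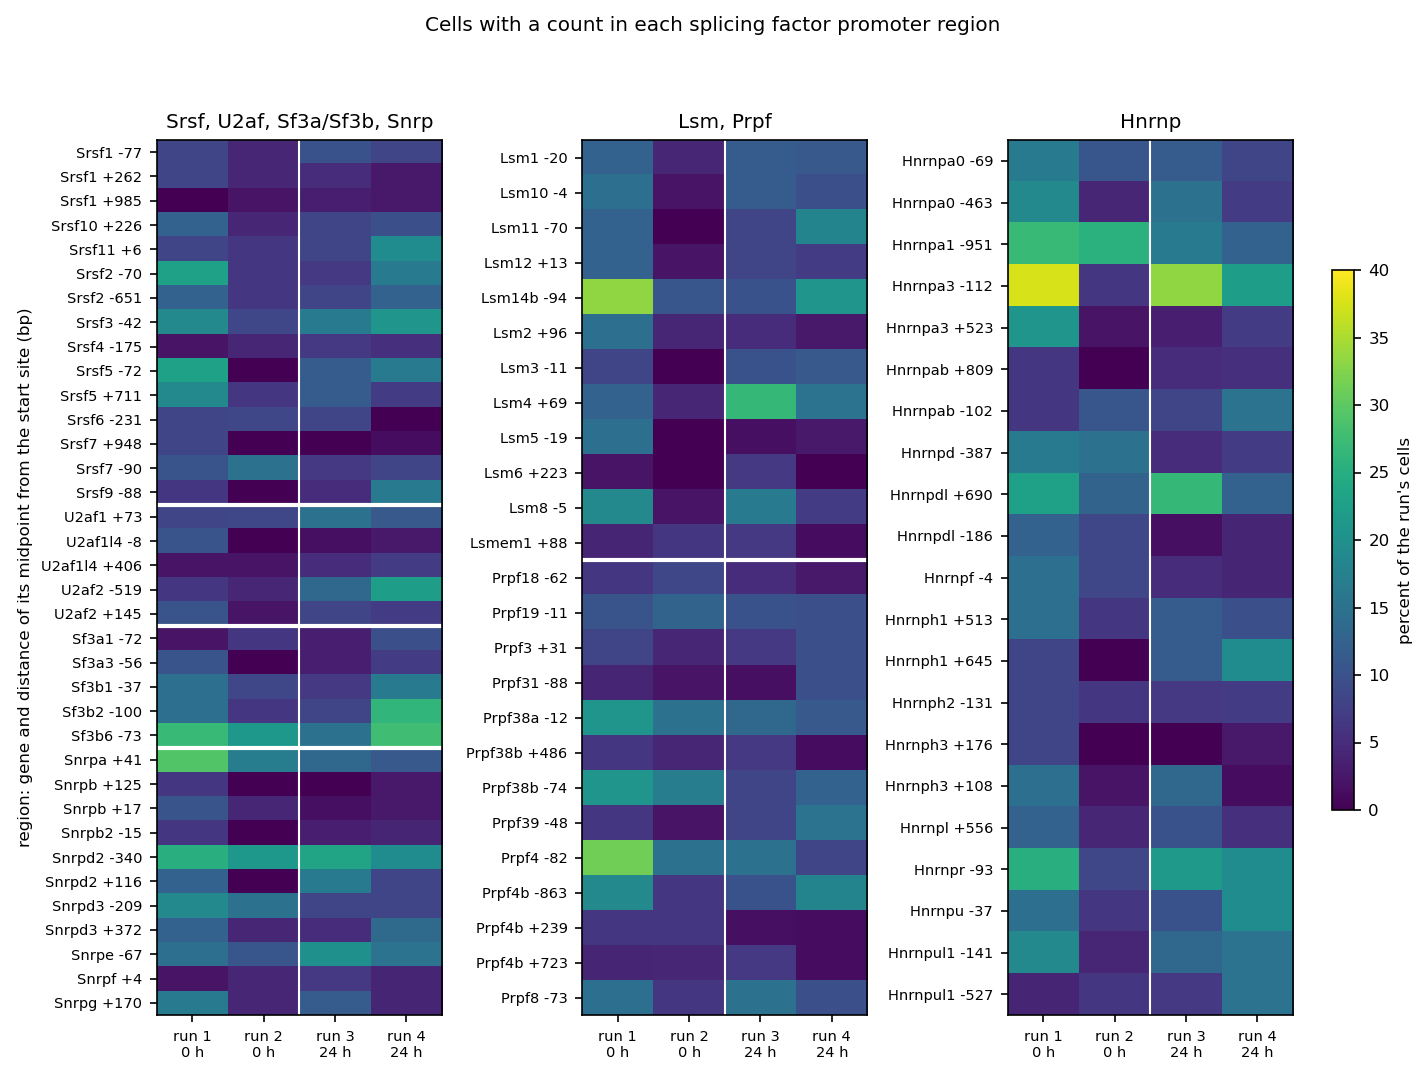
Percent of the cells of each C1 run (colour) with a count in 82 of the 84 member regions (rows, named by gene and distance of the midpoint from the start site in bp), for runs 1 and 2 at 0 hours and runs 3 and 4 at 24 hours. Hnrnpa3 at 112 bp upstream reaches 37.5% of cells in run 1, and the column of run 2 is darkest, with 15 regions at 0.

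Among the regions seen in most cells, 7 are described, of 4 Hnrnp genes and of 1 gene each of the Sf3b, Snrp and Lsm groups, and they were 143 to 179 bp wide. Shares of detected cells are not corrected for depth, and the cells of run 1 were the deepest. Hnrnpa3, which encodes an hnRNP of the A/B family, was detected in 37.5%, 6.38%, 33.3% and 22.2% of the cells of runs 1 to 4 at its upstream region. Run 2 lay far below the other 3 runs there. Sf3b6, an SF3B subunit that lies at the branch site, was detected in 27.1%, 21.3%, 15.0% and 27.8% of cells. The region 340 bp upstream of Snrpd2, a core Sm protein, with Qpctl beside it, was detected in 25.0%, 21.3%, 23.3% and 19.4%. At Sf3b6 and at this Snrpd2 region the runs of the time-points overlapped. They did not at the nearer Snrpd2 region, 116 bp downstream and also beside Qpctl. There both 24-hour runs were higher, with a log2 change of 1.75 ± 0.92 (edgeR adjusted p = 0.446). Hnrnpa1, beside Cbx5, was detected in 27.1%, 25.5%, 16.7% and 12.5% of cells, and Hnrnpr in 25.0%, 8.51%, 21.7% and 19.4%. Lsm14b, which acts in cytoplasmic RNA granules and not in a splicing ring, was detected in 33.3%, 10.6%, 10.0% and 20.8%, and the Hnrnpdl region 690 bp downstream in 22.9%, 12.8%, 26.7% and 12.5%. Without the nearer Snrpd2 region, the edgeR log2 changes of the 7 regions ran from -0.29 to 0.88, and their adjusted p from 0.556 to 0.915. The highest, at Hnrnpa3, was 0.31 without run 2 and 2.22 without run 1. At Hnrnpr it was 0.79 with all runs, 0.51 without run 2 and 1.25 without run 1. In thinned cells the sign changed at Hnrnpa3 (-0.16 ± 1.02), Sf3b6 (-0.22 ± 0.96), Hnrnpa1 (0.17 ± 1.03), Hnrnpr (-0.35 ± 0.98) and this Hnrnpdl region (-0.14 ± 0.58). These thinned values were smaller than their SE and came from a single random draw.

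Among SR protein genes, 10 of 11 had a region. Srsf3 was the most detected of them, in 18.8%, 8.51%, 16.7% and 20.8% of the cells of runs 1 to 4. Srsf2, with Mfsd11 beside it, was detected in 22.9%, 6.38%, 6.67% and 16.7%, and Srsf5 in 22.9%, 0%, 11.7% and 16.7%. The 0 of 47 cells of run 2 at Srsf5 allows a share of up to 6.38%. At Srsf1, an activator of exon inclusion, detection at the nearest region was 8.33%, 4.26%, 10.0% and 8.33%, and at Srsf10 12.5%, 4.26%, 8.33% and 9.72%. Srsf6 was seen in 8.33%, 8.51% and 8.33% of the cells of runs 1 to 3 and in 0 of 72 cells of run 4, which allows up to 4.17%. In depth-corrected levels the runs of the time-points overlapped at these regions of Srsf2, Srsf5, Srsf6 and Srsf10. They did not at Srsf1, with 30.3 and 31.3 normalized CPM at 0 hours and 56.6 and 73.3 at 24 hours (edgeR adjusted p = 0.693), nor at Srsf3, with 78.8 and 62.7 at 0 hours and 113 and 169 at 24 hours (edgeR adjusted p = 0.561).

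The factors of the 3' splice site and branch site had 8 genes with a region out of 12. U2af1, the subunit that reads the AG of the 3' splice site, was detected in 8.33%, 8.51%, 15.0% and 11.1% of the cells of runs 1 to 4, with both runs at 24 hours above those at 0 hours. Sf3b1, the large SF3B subunit, was detected in 14.6%, 8.51%, 6.67% and 16.7% of cells, and Sf3b2 in 14.6%, 6.38%, 8.33% and 26.4%. Sf3a1 was detected in 2.08%, 6.38%, 3.33% and 9.72%, and Sf3a3 in 10.4%, 0%, 3.33% and 6.94%. In each of the 5 Sf3a and Sf3b regions run 4 was above run 3, and the runs of the time-points overlapped in all 5.

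Of the Sm and snRNP genes, 8 of 12 had a region. Snrpa, the U1 snRNP protein A, was detected in 29.2%, 17.0%, 13.3% and 11.1% of cells. Snrpe was detected in 14.6%, 10.6%, 20.0% and 15.3% of cells. Among Lsm genes, Lsm1, of the ring that acts in mRNA decay, was detected in 12.5%, 4.26%, 11.7% and 11.1% of cells. Lsm8, the subunit particular to the U6 ring, was detected in 18.8%, 2.13%, 16.7% and 6.94%, and Lsm2, of both rings, in 14.6%, 4.26%, 5.0% and 2.78%. Run 2 was the lowest run at Lsm1 and Lsm8. Among PRPF genes, Prpf8, which lies at the catalytic centre, was detected in 14.6%, 6.38%, 15.0% and 9.72% of cells, and Prpf19 in 10.4%, 12.8%, 10.0% and 9.72%. The tri-snRNP genes Prpf3 and Prpf31 were detected in 8.33%, 4.26%, 6.67% and 9.72% and in 4.17%, 2.13%, 1.67% and 9.72%. Hnrnpu was detected in 14.6%, 6.38%, 10.0% and 19.4% of cells and Hnrnpl, at a region 556 bp downstream, in 12.5%, 4.26%, 10.0% and 5.56%.

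Summed over the set, splicing factor promoters took a nearly equal share of promoter counts in 3 of 4 runs. The share was 0.931% in run 1 (781 of 83856 counts, exact 95% binomial interval 0.867 to 0.999), 0.765% in run 2 (344 of 44950, 0.687 to 0.850), 0.988% in run 3 (706 of 71445, 0.917 to 1.06) and 0.980% in run 4 (927 of 94628, 0.918 to 1.04). Such intervals cover counting error only. The mean was 0.848% ± 0.117 at 0 hours and 0.984% ± 0.00604 at 24 hours (SD, n = 2 runs each), a difference of 0.136 percentage points. Without run 2 the difference was 0.0525 percentage points, and without run 1 it was 0.219. With cells thinned to equal total counts the shares were 1.04%, 0.723%, 1.00% and 0.911%, so that run 1 exceeded both 24-hour runs and run 2 was still lowest.

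The low share of run 2 was most marked in the Lsm genes. Their 12 regions took 0.136% of promoter counts in run 1, 0.0467% in run 2 (21 counts, exact interval 0.0289 to 0.0714), 0.154% in run 3 and 0.133% in run 4. Run 2 was below run 1 in 11 of 12 Lsm regions, against 57.3% of other promoter regions. The exception was Lsmem1, and the 11 remaining Lsm regions held 110, 17, 102 and 125 counts. With the Lsm regions left out, the share of the set was 0.795%, 0.719%, 0.834% and 0.846% in runs 1 to 4. The Prpf regions were not lower in run 2, at 0.166%, 0.182%, 0.176% and 0.148% in runs 1 to 4. The 5 Sf3a and Sf3b regions took 0.0549%, 0.0667% and 0.0434% in runs 1 to 3 and 0.106% in run 4. The 5 U2af regions took 0.0322% and 0.0200% at 0 hours and 0.0490% and 0.0613% at 24 hours. U2af was the only family besides the whole set in which both 24-hour shares exceeded both 0-hour shares, with intervals that overlapped between runs 1 and 3, runs 1 and 4, and runs 2 and 3.

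**Figure D2:**
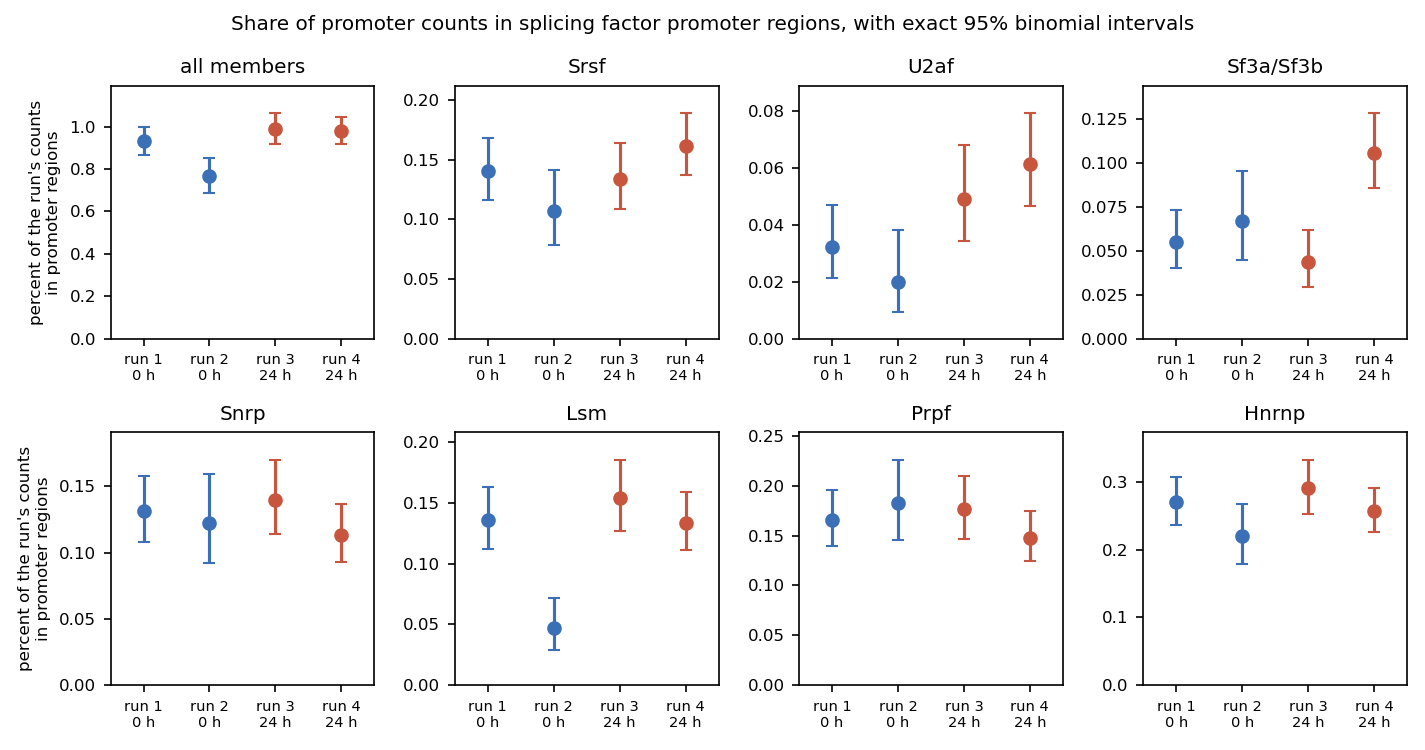
Percent of each run's promoter counts that fell in all 84 regions and in each family (points), with exact 95% binomial intervals (bars), for 0-hour runs (blue) and 24-hour runs (red). The Lsm share of run 2 is 0.0467% and the other 3 runs lie between 0.133% and 0.154%.

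The comparison of 24 with 0 hours asked which of these promoters changed in accessibility after Ikaros entered the nucleus. No splicing factor promoter region passed an adjusted p of 0.05 in edgeR's quasi-likelihood test, where 11 of all 20103 regions (0.0547%) did. DESeq2 called no member and 0.0% of all regions. At an unadjusted p under 0.05, edgeR marked 8 of 84 members (9.52%) as higher at 24 hours and none as higher at 0 hours, against 7.66% and 1.93% of other promoter regions. DESeq2 marked 3 members as higher at 24 hours, against 3.45% of other promoter regions. The median log2 change of the members was 0.53 and that of other promoter regions 0.33, with 63 of 84 members (75.0%) and 64.5% of others above 0. All regions together had a median of -0.06, so promoter regions as a whole stood higher at 24 hours on this scale. By family the median log2 change was 1.43 for U2af and 0.70 for Sf3a and Sf3b, with 5 regions each. For the larger families it was 0.88 for Lsm, 0.67 for Srsf, 0.48 for Hnrnp, 0.44 for Prpf and 0.36 for Snrp. The members with no other start within 1 kb had a median of 0.74, and those with one had 0.23. The median over members was 1.05 without run 1 and 0.34 without run 2, beside 0.51 and 0.31 for other promoter regions. With the number of cells as offset it was 0.040, beside -0.15 for other promoter regions, and in a fit and scaling of their own for regions seen in at least 10% of cells it was 0.26, beside 0.16. In the fit to all regions those 39 members had a median of 0.57, beside 0.43. In thinned cells the order turned, with 0.32 for members and 0.37 for other promoter regions.

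**Figure D3:**
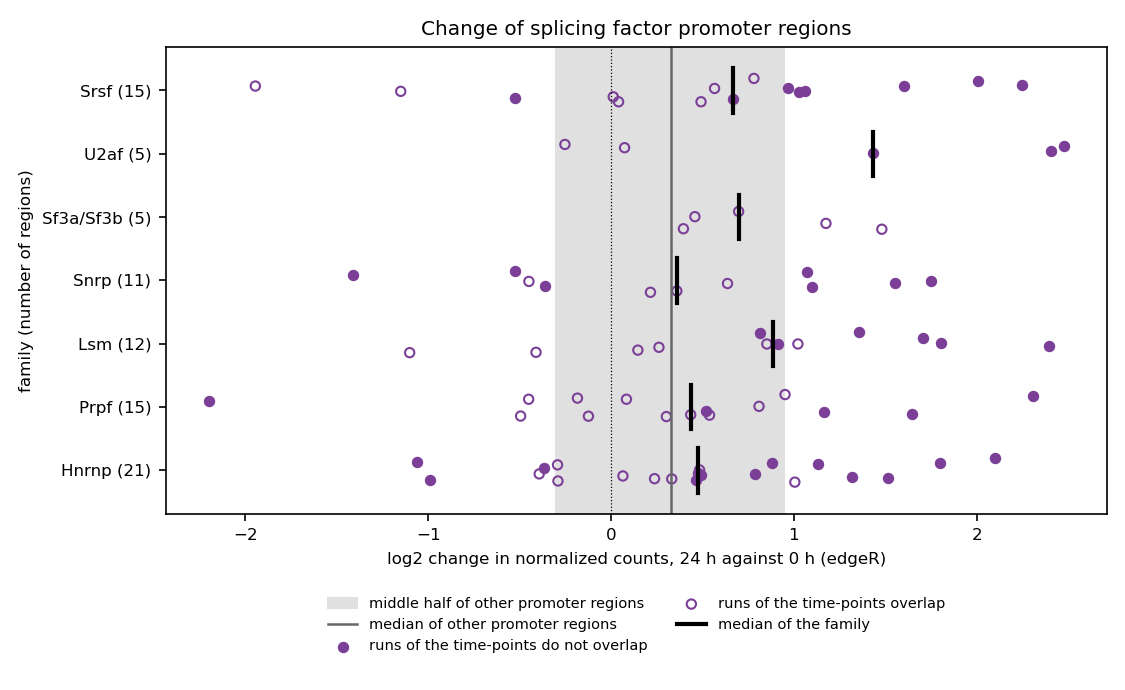
Log2 change at 24 against 0 hours (x axis, edgeR) of each member region, by family (rows), with filled points where the runs of the time-points do not overlap and black bars for family medians. The grey line and band are the median and the middle 50% of other promoter regions, and the members scatter across the band, from -2.20 to 2.48.

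Runs 3 and 4 both exceeded runs 1 and 2 in 34 members (40.5%), as in 27.9% of other promoter regions. The opposite order was found in 8 members (9.52%), as in 13.2% of others. The share of the first kind was 46.7% for Srsf, 50.0% for Lsm, 47.6% for Hnrnp, 36.4% for Snrp and 26.7% for Prpf. For U2af it was 60.0%, or 3 of 5 regions, while none of the 5 Sf3a and Sf3b regions showed it. Of these 3 U2af regions, that of U2af1l4 also had the starts of Gm49396 and Psenen within 1 kb. With cells thinned to equal total counts 22 members showed the first order and 4 the second, against 23.5% and 12.0% of other promoter regions. With cell numbers as the offset, 14 members (16.7%) showed the first order and 13 (15.5%) the second, against 12.1% and 20.3% of other promoter regions.

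U2af2, the subunit that binds the polypyrimidine tract, had the smallest p of the set at a region 519 bp upstream of its start (chr7:5061544-5061704). Its levels were 30.3 and 20.9 normalized CPM at 0 hours and 97.0 and 205 at 24 hours, a log2 change of 2.48 ± 0.74 (SE; edgeR adjusted p = 0.171). Detection was 5 of 95 cells at 0 hours (5.26%, exact interval 1.73 to 11.9) and 24 of 132 cells at 24 hours (18.2%, 12.0 to 25.8). The 24-hour runs were farther apart than the 0-hour runs, and the runs of the time-points did not overlap. Its second region, 145 bp downstream, had a log2 change of 0.07. Prpf39, a U1-associated factor, had 18.2 and 20.9 normalized CPM at 0 hours and 72.8 and 125 at 24 hours, a log2 change of 2.30 ± 0.89 (adjusted p = 0.275). Lsm4, a subunit shared by both Lsm rings, had 48.5 and 41.8 at 0 hours and 186 and 117 at 24 hours, a log2 change of 1.71 ± 0.66 (adjusted p = 0.277). In these 3 regions the 0-hour runs were close together and both 24-hour runs stood above them. In thinned cells the log2 change was 1.73 for U2af2, 4.92 ± 1.94 for Prpf39 and 2.46 for Lsm4.

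The next 3 regions rested in part on a 0 in run 2. Lsm3, on a start shared with Xpc, had 24.3 and 0 normalized CPM at 0 hours and 64.7 and 95.3 at 24 hours, a log2 change of 2.40 ± 1.01 (adjusted p = 0.316). Lsm11, a component of the U7 snRNP of histone pre-mRNA processing, had 54.6 and 0 at 0 hours and 56.6 and 169 at 24 hours, a log2 change of 1.81 ± 0.82 (adjusted p = 0.344). Srsf9, an SR protein, had 24.3 and 0 at 0 hours and 40.4 and 103 at 24 hours, a log2 change of 2.24 ± 1.05 (adjusted p = 0.364). At Lsm11, run 1 and run 3 were nearly equal. With 1 run left out the log2 change ran from 1.69 (without run 2) to 6.28 (without run 1) for Lsm3, from 0.80 (without run 4) to 6.77 (without run 1) for Lsm11 and from 1.42 (without run 4) to 6.13 (without run 1) for Srsf9, where the highest values set the 24-hour runs against a lone 0. In thinned cells it was 2.12 for Lsm3, 2.29 for Lsm11 and 0.71 for Srsf9. The other 2 regions with an unadjusted p under 0.05 were those of Sf3b2, where the runs overlapped, and the farther region of Hnrnph1, 645 bp downstream, which is named here after its values were seen. Without run 3, with run 4 assumed to vary as the 0-hour runs do, edgeR called U2af2, Lsm11 and Sf3b2 as higher at 24 hours (adjusted p = 0.00750, 0.0406 and 0.0304). In that fit 3.96% of all regions were called, and 3.59% of other promoter regions were called as higher at 24 hours, beside 3 of 84 members (3.57%).

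In the other direction the smallest p was at Prpf4b, a kinase of spliceosome proteins, at a region 239 bp downstream of its start. It had 36.4 and 41.8 normalized CPM at 0 hours and 8.09 and 7.33 at 24 hours, a log2 change of -2.20 ± 1.38 (adjusted p = 0.553). It rested on 8 detected cells, 6 of 95 at 0 hours and 2 of 132 at 24 hours. The other Prpf4b regions went the opposite way, with a log2 change of 0.81 ± 0.72 at 863 bp upstream, seen in 31 cells, and of 0.95 ± 1.30 at 723 bp downstream (adjusted p = 0.710 and 0.830). Hnrnpd, which binds AU-rich RNA and has the start of 4930524J08Rik within 1 kb of its region, had 84.9 and 94.0 at 0 hours and 40.4 and 44.0 at 24 hours, a log2 change of -1.06 ± 0.78 (adjusted p = 0.633). It was detected in 15.8% of 0-hour cells (exact interval 9.12 to 24.7) and 6.06% of 24-hour cells (2.65 to 11.6). Snrpb, the Sm protein B, had 42.5 and 41.8 at 0 hours and 8.09 and 22.0 at 24 hours, a log2 change of -1.41 ± 1.19 (adjusted p = 0.689). At Prpf4b and Hnrnpd the runs of each time-point lay close together, and at Snrpb the 24-hour runs were farther apart. Hnrnpdl at its nearest region, Snrpd3 at 209 bp upstream and Srsf7 at 90 bp upstream, all also on starts shared with another gene, had log2 changes of -0.99 ± 1.16, -0.52 ± 0.70 and -0.52 ± 0.80 (adjusted p = 0.797, 0.828 and 0.855). With 1 run left out the log2 change ran from -2.25 (without run 4) to -0.91 (without run 3) for Snrpb, from -2.13 (without run 4) to -0.39 (without run 3) for this Hnrnpdl region, from -0.93 (without run 4) to -0.21 (without run 3) for Snrpd3 and from -0.88 (without run 1) to -0.13 (without run 2) for Srsf7. In thinned cells it was -3.24 for Prpf4b, -0.14 for Hnrnpd, -4.17 for Snrpb, -0.15 for this Hnrnpdl region and -0.38 for Srsf7, and it turned to 1.55 for Snrpd3. The second region of Snrpd3, 372 bp downstream, had a log2 change of 0.64, that of Snrpb, 125 bp downstream, -0.45, and that of Srsf7, 948 bp downstream, -1.94.

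**Figure D4:**
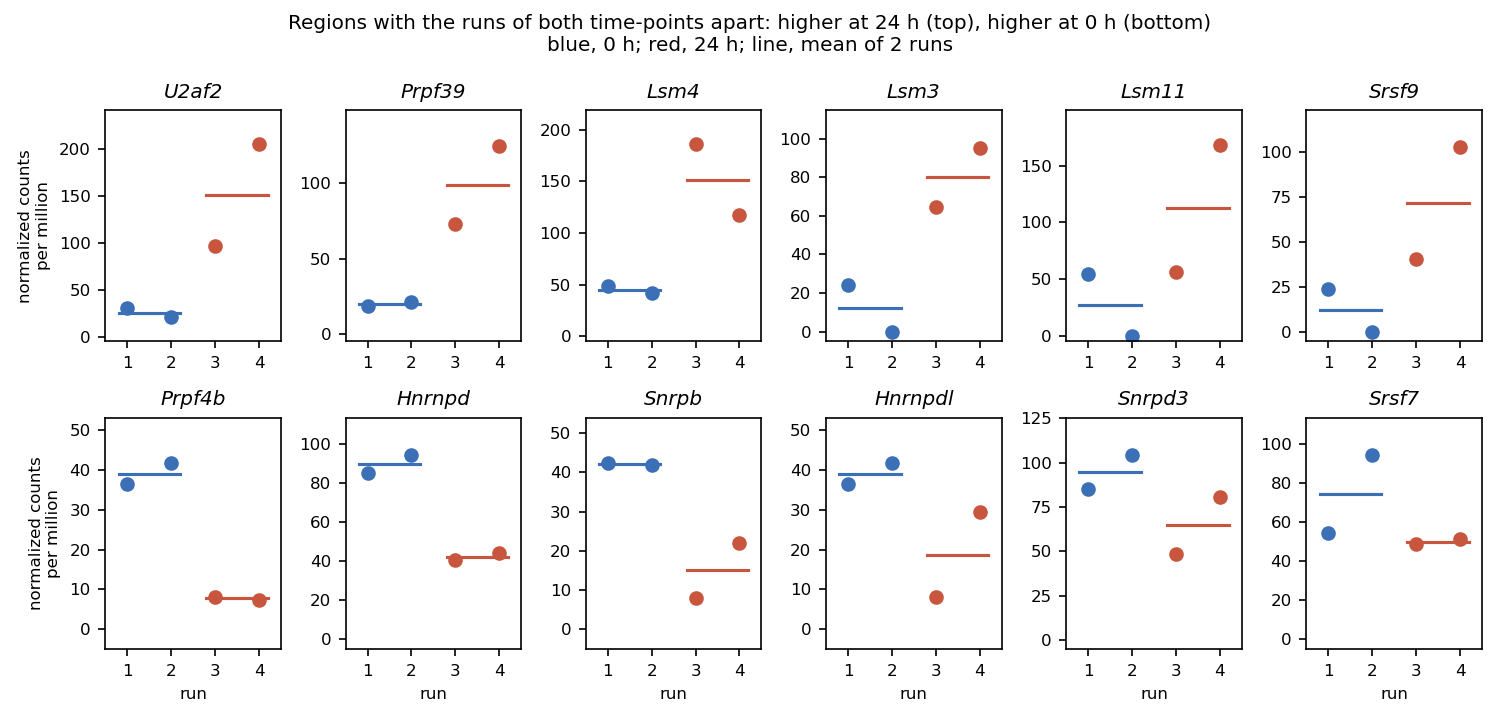
Normalized CPM (y axis) in each run (x axis) for the 6 regions with the smallest p among those higher in both 24-hour runs (top) and the 6 among those higher in both 0-hour runs (bottom), with lines at the mean of 2 runs. U2af2 stands at 30.3 and 20.9 in the blue 0-hour runs and at 97.0 and 205 in the red 24-hour runs, and Lsm3, Lsm11 and Srsf9 are at 0 in run 2.

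A wider list of 105 spliceosome and splicing regulator genes outside the symbol rule gave a median change near that of the members. Of these, 82 had a promoter region, 98 regions in all. Their median detection was 21 cells (9.25%) and their median log2 change 0.55, with 73 of 98 above 0. None passed an adjusted p of 0.05, the smallest being 0.146, and 7 of 98 had an unadjusted p under 0.05 as higher at 24 hours and none as higher at 0 hours, beside 7.66% and 1.93% of the promoter regions outside the symbol rule. Runs 3 and 4 both exceeded runs 1 and 2 in 30 (30.6%), and the reverse held in 7 (7.14%), beside 27.9% and 13.2%. The 4 seen in most cells were Sf1, which recognises the branch point, in 58 cells, Smndc1 and Rbm39 in 52 each, and Dhx15, tied with Raly, in 45. Dhx15, the helicase that takes the spliceosome apart, was detected in 16.7%, 2.13%, 15.0% and 37.5% of the cells of runs 1 to 4. Its log2 change was 2.10 ± 0.59, with the adjusted p of 0.146. The tied Raly region was detected in 37.5%, 10.6%, 16.7% and 16.7%, with a log2 change of -0.17 ± 0.55 (edgeR adjusted p = 0.94).

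Sequence and position, which the rule did not use beyond the start site, were close to those of other promoters apart from a few motifs and the CpG content. The median width was 148.5 bp and the median GC content 66.2%, beside 147 bp and 65.7% for other promoter regions. In windows of 150 bp around the midpoint the median ratio of observed to expected CpG was 0.992, beside 0.854. The midpoint lay a median of 88 bp from the closest protein-coding start, beside 75 bp. Of 10 motifs searched on both strands in these windows, the CCAAT box (CCAAT) had the widest difference in share, with 37 of 84 members (44.0%) and 30.6% of other promoter regions. The ETS core (CGGAAG) was found in 36.9% and 27.8%, the GC box (GGGCGG) in 61.9% and 55.2%, and the Ikaros core (GGGAA) in 41.7% and 38.0%. The E-box (CACGTG) was found in 3.57% and 6.99%, and the YY1 core (GATGGCG) in 2.38% and 4.39%. The CRE core (TGACGT) was found in 11.9% and 9.33%, the NRF1 core (GCATGCG) in 7.14% and 4.87%, the ZBTB33 core (TCGCGA) in 5.95% and 4.01%, and the TATA box (TATAAA) in 3.57% and 2.02%. The Ikaros and ETS cores share the letters GGAA but not the base before them, so no site can match both at the same place. These shares are descriptions of letters, without a test. Members with an Ikaros core had a median log2 change of 0.79 and those without 0.46, and other promoter regions with it had 0.25 and those without 0.37.

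**Figure D5:**
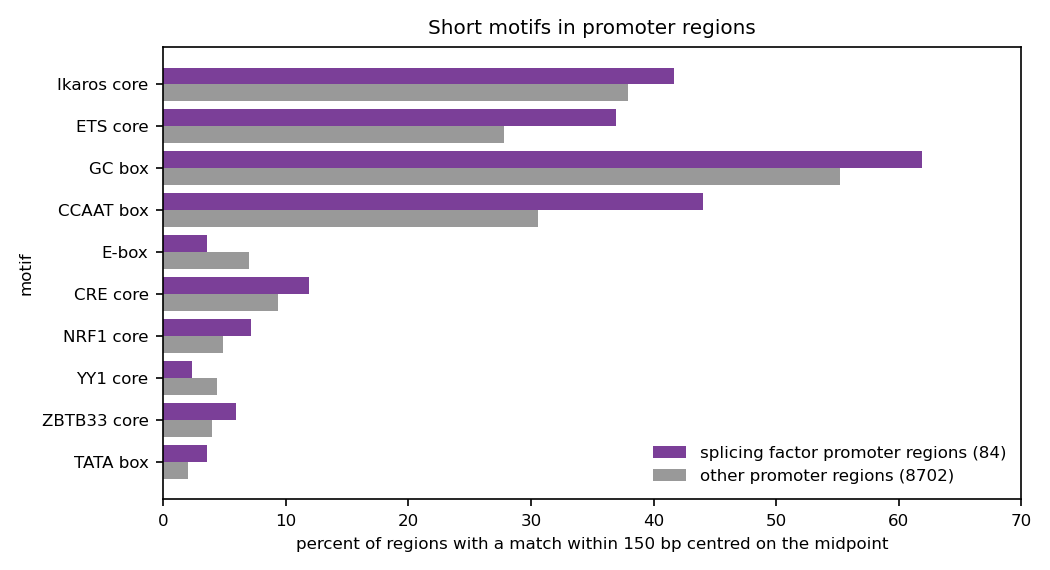
Percent of regions (x axis) with at least 1 match to each motif (rows) on either strand within 150 bp centred on the midpoint, for the 84 members (purple) and 8702 other promoter regions (grey). The CCAAT box stands at 44.0% against 30.6% and the GC box, the most frequent in both, at 61.9% against 55.2%.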

How the data were processed

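Single cells were captured on the Fluidigm C1 for ATAC-seq. The authors aligned reads to mm10 with Bowtie2, removed duplicates with Picard, called peaks on bulk samples with HOMER and quantified each cell in them, and they deposited whole-number counts from 0 to 2 per region and cell, without normalization. No source used here states what was done with higher values. Doublets were not called, since the study inspected each capture site. Bulk samples were not analysed here. Region ends are read as deposited, counted from 1.

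Start sites were the 5' ends of protein-coding genes in GENCODE vM21. Counts were summed over the 48, 47, 60 and 72 cells of the 4 runs (92639 to 164357 counts), since cells of a run are not replicates. edgeR 4.0.16 in R 4.3.3 was fitted to the sums of all 20103 regions after TMM normalization, and its quasi-likelihood p-values were adjusted over all regions by Benjamini-Hochberg, with a threshold of 0.05. edgeR's fit was tested on simulated data with planted log2 changes well above the members' median of 0.53. That does not show how many smaller changes it could detect. The value after ± of an edgeR log2 change is an approximate SE. It is the absolute log2 change divided by the square root of the quasi-likelihood F statistic. DESeq2 1.42.0 was an alternative. Shares have exact (Clopper-Pearson) 95% binomial intervals from SciPy 1.17.1, and a 0 is given the limit of 3 counts. These cover counting error only. Copies of each sequence were counted with BLAST 2.17.0.

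The named regions are the 8 seen in most cells, the 6 with the smallest p in each direction among members whose runs do not overlap, and the nearest region of 41 listed splicing genes, less items that are not reported here. Of the wider list, the 4 seen in most cells are named. The members, lists and rules were chosen with earlier results of these data known. Alternatives were other scalings and filters, counts reduced to detection, cells thinned to equal total counts, leaving out each run, a replicate block, and other definitions of a promoter. Thinning was a single random draw and left out 23 cells with fewer counts.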

Additional observations from a re-analysis of the deposited data

How the results depend on the processing

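No member was called under any alternative with all 4 runs, and leaving out 1 run gave 0 to 3, the 3 without run 3. The replicate block, with the chip number of the titles as the pair, gave 0 members and 11 of all regions. The deviations of same-numbered runs correlated at -0.01 over all regions. With so few counts per region this cannot show whether same-numbered runs were paired. Regions called among all 20103 were 11 as reported, 33 by total counts, 0 by DESeq2 size factors, 3 with the number of cells as offset, 18 among regions in at least 10% of cells, 0 as detected or not detected, 0 in thinned cells, 0 by DESeq2, and 1 (without run 2) to 797 (without run 3) with 1 run left out, where a lone run is assumed to vary like those of the other time-point. The members' median log2 change was 0.53 as reported, 0.040 with the number of cells as offset, 0.26 in a separate fit and scaling of regions seen in at least 10% of cells (0.16 for other promoter regions; 0.57 and 0.43 for the same regions as reported), and 0.34 to 1.05 with 1 run left out. In thinned cells it was 0.32, below the 0.37 of other promoter regions. Members with non-overlapping runs were 42 as reported (34 higher at 24 hours, 8 at 0 hours), 27 with cell numbers as the offset (14 and 13, beside 12.1% and 20.3% of other promoter regions), 15 of 39 in the filtered regions (10 and 5, beside 24.2% and 15.3%), 26 in thinned cells (22 and 4, beside 23.5% and 12.0%) and 59 to 66 with 1 run left out (41 to 51 and 12 to 18, beside 39.7% to 49.9% and 22.8% to 27.6%). The difference in share of promoter counts was 0.136 percentage points as reported and 0.0525 to 0.219 with 1 run left out, and 0.0833 without the Lsm regions, an alternative chosen after seeing the data, like that without Lsmem1 (median 0.54) and that of members with no other start within 1 kb.

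Among 19 named regions, the sign changed in 11 of 145 fits with all runs and in 6 of 76 with 1 run left out. In thinned cells the log2 change became -0.16 for Hnrnpa3, -0.22 for Sf3b6, 0.17 for Hnrnpa1, -0.35 for Hnrnpr, -0.14 for the farther Hnrnpdl region and 1.55 for Snrpd3, and without a change of sign 4.92 for Prpf39, -4.17 for Snrpb, -0.14 for Hnrnpd and -0.15 for the nearest Hnrnpdl region. With the number of cells as offset it was -0.069 for Sf3b6, -0.21 for Snrpd2 and -0.33 for Lsm14b, and in the filtered regions -0.056 for Snrpd2 and -0.045 for Lsm14b. With 1 run left out it ran from -0.52 to 0.95 for Sf3b6, -0.029 to 0.48 for Snrpd2, -0.58 to 0.029 for Hnrnpa1, -0.75 to 1.31 for Lsm14b and -0.0012 to 0.85 for the farther Hnrnpdl region. The cause was not tested. Most members were seen in under 10% of cells, and each time-point had 2 runs.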

Other observations

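Beyond the genes' 5' ends, 21 regions of the matrix lay inside 13 of the genes of the symbol rule, more than 1 kb from the gene's start, 9 with the midpoint in an intron and 12 in an exon. None was called by edgeR, and 1 had an unadjusted p under 0.05, a share below the 12.1% of all regions. Both 24-hour runs exceeded both 0-hour runs in 6 of them and the reverse held in 4, beside 19.3% and 25.7% of all regions. That region lay 1906 bp inside Snrpc, a U1 snRNP protein whose own start had no region, and was detected in 6.25%, 2.13%, 3.33% and 18.1% of the cells of runs 1 to 4. An intronic region 1168 bp inside Hnrnpk, also within 1 kb of another start site, was detected in 18.8%, 14.9%, 18.3% and 16.7%, the most even of these rates among the regions seen in over 30 cells. An intronic region of Hnrnpu was detected in 25.0%, 6.38%, 18.3% and 13.9%, and an exonic region of Hnrnpf, 6434 bp inside the gene, in 22.9%, 14.9%, 5.0% and 12.5%. These regions were named after their values were seen. With any annotated transcript start in place of the gene's 5' end, 18 of these 21 regions joined the set, and 6 of the 19 genes without a region gained at least 1.

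Among values above 0 in the members, 890 of 1868 were 2 (47.6%), beside 52.9% in other promoter regions.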
